A study of Mus musculus with 6 samples.

Results

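The 10 genes described here encode the PPAR nuclear receptors (Ppara, Ppard and Pparg), 2 of their RXR partners (Rxra and Rxrb), the coactivators Ppargc1a, Ppargc1b, Med1 and Ncoa1, and the corepressor Ncor1. They were chosen by name, and each matched 1 Ensembl identifier among the 55401 genes of the deposited count table. All 10 were among the 17394 genes that passed the low-count filter. The genes were measured in fresh liver of C57BL/6 mice by sequencing of polyadenylated RNA. The OP group held 3 libraries from mice treated with OP, which stands for okra polysaccharide in the series title (long-chain carbohydrate extracted from okra), and the labels of these samples name no diet. The HFCF group held 3 libraries from mice on a diet rich in fat, cholesterol and fructose. The labels give no sex, age, dose or duration, and they do not say whether the libraries of a group came from separate animals. The p-values therefore refer only to the spread among these 6 libraries, which may be technical. The series title ties okra polysaccharide to PPAR-gamma signalling, and the comparison asks how the transcripts of the receptors and of the proteins that work with them stood in OP livers.

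PPAR receptors bind DNA as heterodimers with an RXR and are activated by fatty acids and related ligands. Without a ligand the dimer can hold corepressor complexes built on NCOR1, and a ligand exchanges these for coactivators such as NCOA1, the Mediator subunit MED1 and the PGC-1 proteins encoded by Ppargc1a and Ppargc1b. In liver PPAR-alpha is the main driver of fatty acid oxidation during fasting, PPAR-gamma is low in lean liver and promotes lipid storage in fatty liver, and PGC-1alpha is induced by glucagon and fasting and raises gluconeogenic and oxidative genes.

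Libraries held 50635853 to 61918541 counts in OP and 46459980 to 58822973 in HFCF. The share of counts in mitochondrially encoded mRNAs was 7.48, 6.08 and 14.4% in OP and 22.03, 18.8 and 14.1% in HFCF. It was lower in 2 OP libraries than in any HFCF library, and this share was added to the model as an alternative. Levels are given in CPM, counts per 1e6 of the library size scaled by TMM (edgeR's trimmed mean of M values). Of 9 hepatocyte markers with an identifier all 9 were detected in both groups, with a summed level of 49690 to 76192 CPM in OP and 34340 to 55983 CPM in HFCF. In edgeR's test 1 of the 9 fell and 0 rose (3 higher at an unadjusted p under 0.05, 2 higher in DESeq2 and 0 in limma-voom). For comparison, 4385 of all 17394 tested genes had an unadjusted p under 0.05 in edgeR's test, in either direction. The one that fell was Cps1, a urea cycle enzyme (log2 fold change -1.43), which lost its call without OP replicate 2, HFCF replicate 1 or HFCF replicate 2. The other 8 lay above 0, among them Alb (0.92) and Serpina1c (0.74), and the median of the 9 was 0.31.

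The promoters of Ppargc1a and Pparg are shown because these 2 genes had the largest changes among those called, and because Pparg has several starts that a gene count adds up. RefSeq gives 1 start for Ppargc1a and 3 for Pparg (GRCm38.p6, another build than the one the submitters name). Each line holds the 250 bases before a start, 5′ to 3′ on the strand of the gene. Capitals mark matches on either strand to TGACG, the core of the cAMP response element (CRE), to AGGTCA, the core that nuclear receptors bind, and to CCAAT.
Ppargc1a chr5:51567726-51567975 (minus strand): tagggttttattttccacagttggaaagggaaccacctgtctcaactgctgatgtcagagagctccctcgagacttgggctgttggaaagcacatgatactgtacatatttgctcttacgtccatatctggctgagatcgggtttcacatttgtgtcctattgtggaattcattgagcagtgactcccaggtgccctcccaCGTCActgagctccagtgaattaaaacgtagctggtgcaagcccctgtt
Pparg start 1 chr6:115360894-115361143 (plus strand): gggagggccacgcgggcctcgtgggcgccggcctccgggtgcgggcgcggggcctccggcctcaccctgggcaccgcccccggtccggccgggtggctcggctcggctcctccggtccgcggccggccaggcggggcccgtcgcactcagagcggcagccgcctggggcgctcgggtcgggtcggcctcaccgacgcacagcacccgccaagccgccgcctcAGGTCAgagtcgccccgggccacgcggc
Pparg start 2 chr6:115362099-115362348 (plus strand): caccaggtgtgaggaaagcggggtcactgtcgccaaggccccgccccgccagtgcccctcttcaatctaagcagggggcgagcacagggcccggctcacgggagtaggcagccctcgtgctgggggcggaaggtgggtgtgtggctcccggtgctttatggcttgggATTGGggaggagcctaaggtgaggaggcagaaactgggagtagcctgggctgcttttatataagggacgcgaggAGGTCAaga
Pparg start 3 chr6:115421816-115422065 (plus strand): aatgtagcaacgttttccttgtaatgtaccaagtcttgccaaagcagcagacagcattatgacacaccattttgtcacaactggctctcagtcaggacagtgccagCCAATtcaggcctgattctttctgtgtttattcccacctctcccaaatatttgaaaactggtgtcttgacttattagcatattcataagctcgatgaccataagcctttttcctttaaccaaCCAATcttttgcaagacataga
In the Ppargc1a window the capitals begin 49 bases before the start and, with the base before them, spell the reverse complement of TGACGT, which 6.46% of all 32817 windows of this length hold. TGACG alone is in 17.7% of windows, and the whole element TGACGTCA, in 1.55% of windows, is not among the letters of the Ppargc1a window. The Pparg windows hold AGGTCA 28 bases before start 1 and 9 bases before start 2 (14% of all windows hold it), and CCAAT on either strand before starts 2 and 3 (33.8% of all windows). The PPAR response element, searched as 2 copies of AGGTCA with 1 base between them, is in 0.0335% of windows and has no match in the windows of the 9 genes that have one. The base composition of the 3 Pparg windows runs from 82.4% G and C at start 1 through 63.6% to 40.8% at start 3, where the median window has 52.4%. In mouse, different starts of Pparg are known to give the isoforms PPAR-gamma1 and PPAR-gamma2. The counts are per gene, so they do not say which start was used.

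Of the 3 receptor genes Pparg, which promotes lipid storage, rose in OP livers, and Ppara and Ppard did not pass the test. Pparg had 672, 631 and 874 counts in the OP libraries, against 247, 140 and 407 in the HFCF libraries. These correspond to 11.2, 9.92 and 18.2 CPM in OP and 5.12, 2.91 and 6.72 CPM in HFCF. Each OP library lay above each HFCF library, and OP replicate 3 stood apart as the highest of the 6. The fitted difference was 2.66-fold, a log2 fold change of 1.41 ± 0.341 (SE, n = 3 libraries per group; 95% interval 0.63 to 2.19), with adjusted p = 0.0467 in edgeR's quasi-likelihood test (Benjamini-Hochberg adjustment across the 17394 genes). Of all these genes, 6.73% passed the threshold of 0.05, 3.26% as higher and 3.47% as lower in OP. The call of Pparg was close to the threshold: of the 6 libraries left out in turn, it held only without HFCF replicate 3, with log2 fold changes of 1.10 to 1.70 and adjusted p of 0.0432 to 0.186. It was also lost with RLE scaling, with no low-count filter, and with the mitochondrial share in the model, where the log2 fold change was 1.61 (adjusted p = 0.16 in the same edgeR test).

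Pparg is also a gene of adipocytes and macrophages, and in bulk tissue more cells of a type and more RNA per cell cannot be told apart. The 8 adipocyte markers summed to 37.4, 91.8 and 106 CPM in OP and 26.9, 23.7 and 41.9 CPM in HFCF, with all 6 tested markers above 0 in log2 fold change and 0 past the threshold in edgeR's test (2 at an unadjusted p under 0.05, namely Cfd and Nnat, 1 past the threshold in DESeq2 and 0 in limma-voom). Adipoq, Plin1 and Lep had 0 counts in OP replicate 1 and 0 in HFCF replicates 1 and 2. In OP replicates 2 and 3 they had 150, 129 and 10 counts and 45, 36 and 13 counts, and in HFCF replicate 3 they had 18, 45 and 0. Cfd, the complement factor D or adipsin, had 733, 1686 and 3027 counts in OP and 0, 5 and 201 in HFCF, with OP replicate 3 highest as for Pparg. The remaining markers Retn, Fabp4, Lipe and Nnat had 9, 310, 1177 and 14 counts in OP replicate 1. In HFCF they had 0, 426, 850 and 20 counts in replicate 1 and 0, 308, 816 and 11 in replicate 2. The 9 macrophage and Kupffer cell markers summed to 180, 314 and 225 CPM in OP and to 328, 380 and 304 CPM in HFCF, and 0 of 9 passed in edgeR's test (2 lower at an unadjusted p under 0.05, namely Cd5l and Clec4f, 2 lower in DESeq2 and 0 in limma-voom). Stellate cell, endothelial and lymphocyte markers (8, 7 and 8 genes) overlapped between the groups in their sums, and 0 passed in edgeR's test, DESeq2 or limma-voom (0, 0 and 1 at an unadjusted p under 0.05). Beside these counts, 4385 of all 17394 tested genes had an unadjusted p under 0.05 in edgeR's test. The part of these cell types in the level of Pparg was not tested.

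Ppara, the receptor that drives fatty acid oxidation in hepatocytes, had 33.1, 29.8 and 31.4 CPM in OP and 38.0, 35.8 and 45.4 CPM in HFCF. The groups did not overlap, as in 31.2% of all tested genes. The log2 fold change was -0.34 ± 0.141 (SE; 95% interval -0.66 to -0.017), and with an adjusted p of 0.179 in edgeR's quasi-likelihood test Ppara was not called. Ppard, the widely expressed receptor of the family, had 7.26, 4.37 and 4.87 CPM in OP and 4.89, 5.34 and 5.94 CPM in HFCF. The OP libraries spanned the HFCF libraries on both sides, and the 95% interval of the log2 difference, -0.53 to 0.59, leaves changes of either sign possible.

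**Figure D1:**
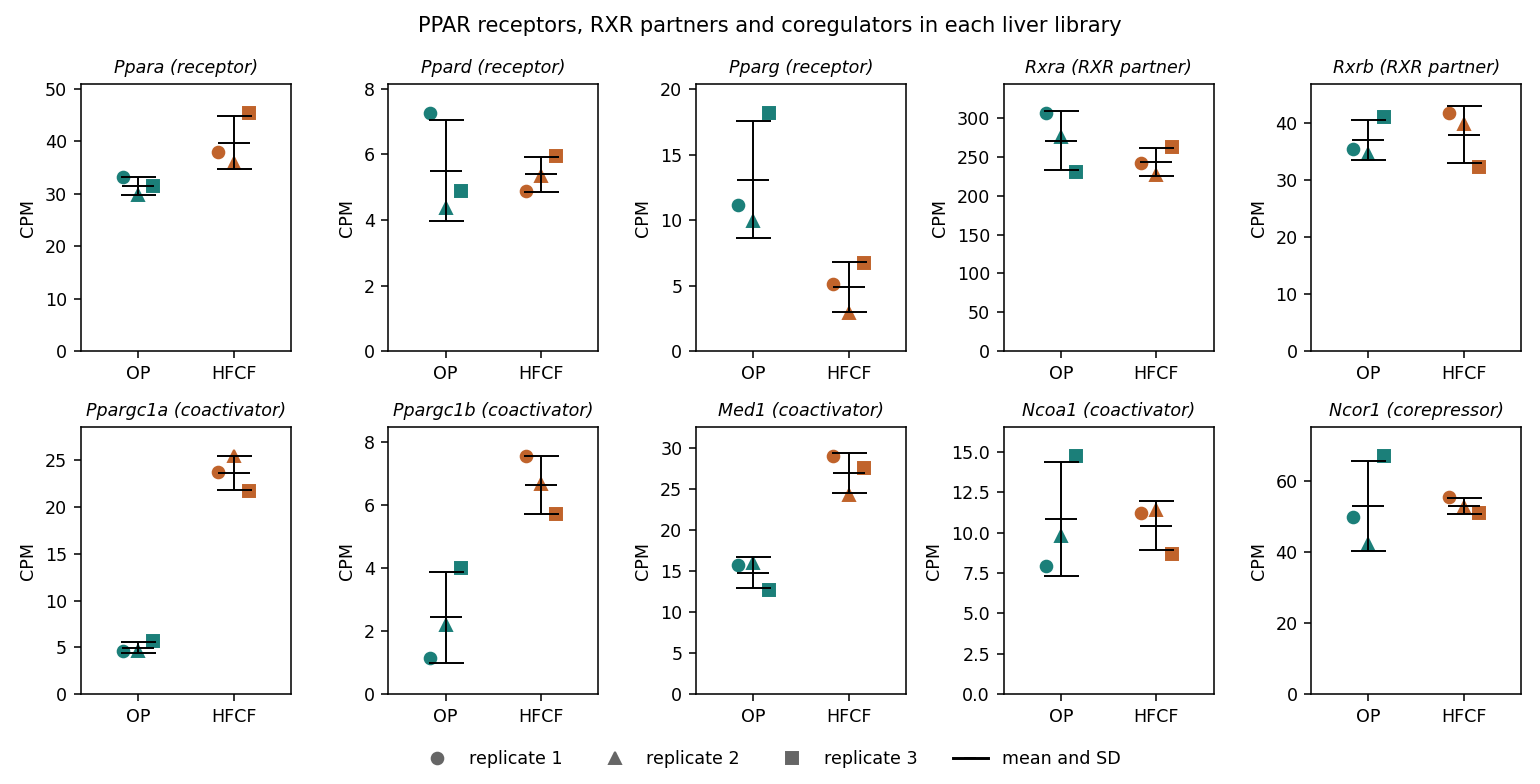
Level of each of the 10 genes in CPM (vertical axes, from 0, each with its own range) in the OP and HFCF libraries; symbols mark the replicate and the bars the mean and SD (n = 3). The OP and HFCF libraries do not overlap for Pparg, Ppara, Ppargc1a, Ppargc1b and Med1, and OP replicate 3 is the highest library for Pparg, Ncoa1 and Ncor1.

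Neither RXR partner passed the test. Rxra, the main RXR of liver, had 307, 276 and 231 CPM in OP and 243, 226 and 263 CPM in HFCF. Its log2 fold change was 0.15, with a 95% interval of -0.20 to 0.50. Rxrb had 35.5, 34.5 and 41.1 CPM in OP and 41.7, 39.9 and 32.3 CPM in HFCF, a log2 fold change of -0.036 with an interval of -0.38 to 0.31. Both sets of libraries overlapped, and the intervals exclude 2-fold changes in either direction (a log2 difference of 1) but not smaller ones.

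Of the 4 coactivator genes 2 fell, Ppargc1a and Med1. Ppargc1a, whose protein PGC-1alpha links fasting signals to gluconeogenesis and mitochondrial oxidation, fell in OP to 4.62, 4.59 and 5.68 CPM, against 23.7, 25.4 and 21.7 CPM in HFCF. In counts these were 277, 292 and 273 in OP and 1143, 1224 and 1316 in HFCF. The libraries of each group lay close together, with a coefficient of variation of 12.6% in OP and 7.87% in HFCF, and the highest OP library lay far below the lowest HFCF library. The level was 4.76-fold lower in OP (log2 fold change -2.25 ± 0.161, SE; 95% interval -2.62 to -1.88; adjusted p = 0.00193 in edgeR's quasi-likelihood test). By p-value Ppargc1a ranked 3 of 17394 tested genes, and it kept its call in all 17 alternatives run, with log2 fold changes of -2.36 to -1.99.

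Ppargc1b, the related coactivator PGC-1beta, known in liver for roles in lipogenesis and lipoprotein secretion, had 1.15, 2.19 and 3.997 CPM in OP and 7.57, 6.67 and 5.73 CPM in HFCF. The groups did not overlap, yet the OP libraries differed among themselves with a coefficient of variation of 59.0%. OP replicate 3 was the highest in OP and came nearest to the HFCF libraries. The log2 fold change was -1.45 ± 0.411 (SE; 95% interval -2.39 to -0.51), and the adjusted p of 0.0713 in edgeR's quasi-likelihood test missed the threshold. It passed with DESeq2 (adjusted p = 0.00459), with limma-voom (0.0327) and without OP replicate 3 (-1.99, adjusted p = 0.025 in edgeR's test), while over all alternatives adjusted p ran between 0.00459 and 0.571. The highest came with the mitochondrial share in the model, where the log2 difference was -0.62.

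Med1, the Mediator subunit through which nuclear receptors contact the transcription machinery, fell in OP to 15.7, 16.02 and 12.6 CPM, against 29.0, 24.2 and 27.6 CPM in HFCF. The highest OP library lay well under the lowest HFCF library. This was a 1.82-fold lower level (log2 fold change -0.86 ± 0.154, SE; 95% interval -1.21 to -0.51; adjusted p = 0.0184 in edgeR's quasi-likelihood test). The call held in 3 of the 6 fits with a library left out, with log2 fold changes of -0.97 to -0.76, and was lost without OP replicate 1, HFCF replicate 1 or HFCF replicate 2 (largest adjusted p = 0.106). Adding the mitochondrial share to the model gave a difference of -1.05, with adjusted p = 0.0862 in the same edgeR test.

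Ncoa1, the steroid receptor coactivator SRC-1, had 7.93, 9.83 and 14.8 CPM in OP and 11.2, 11.4 and 8.67 CPM in HFCF. Ncor1, the corepressor that recruits the histone deacetylase HDAC3, had 49.9, 42.3 and 67.0 CPM in OP and 55.4, 52.7 and 50.9 CPM in HFCF. For both genes OP replicate 3 was the highest of all 6 libraries and the groups overlapped. The log2 fold changes were 0.054 (95% interval -0.51 to 0.61) for Ncoa1 and 0.0022 (-0.41 to 0.42) for Ncor1, and the sign of each turned in some alternatives. With the mitochondrial share in the model they were 0.67 for Ncoa1 and 0.40 for Ncor1, neither past the threshold (adjusted p = 0.267 and 0.347 in edgeR's quasi-likelihood test).

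In all, 1 of the 10 genes rose, 2 fell and 7 did not pass, where 3.26% of all tested genes rose and 3.47% fell. The OP and HFCF libraries did not overlap for 5 of 10 genes, 1 higher and 4 lower in OP, against 31.2% of all tested genes without overlap (15.8% with OP higher and 15.4% with OP lower). The median log2 fold change of the 10 genes was -0.017, against 0.019 over all tested genes. The 5 genes above 0 and the 5 below 0 were spread over the roles, with Ppargc1a, Ppargc1b and Med1 as the 3 lowest and Pparg as the highest.

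**Figure D2:**
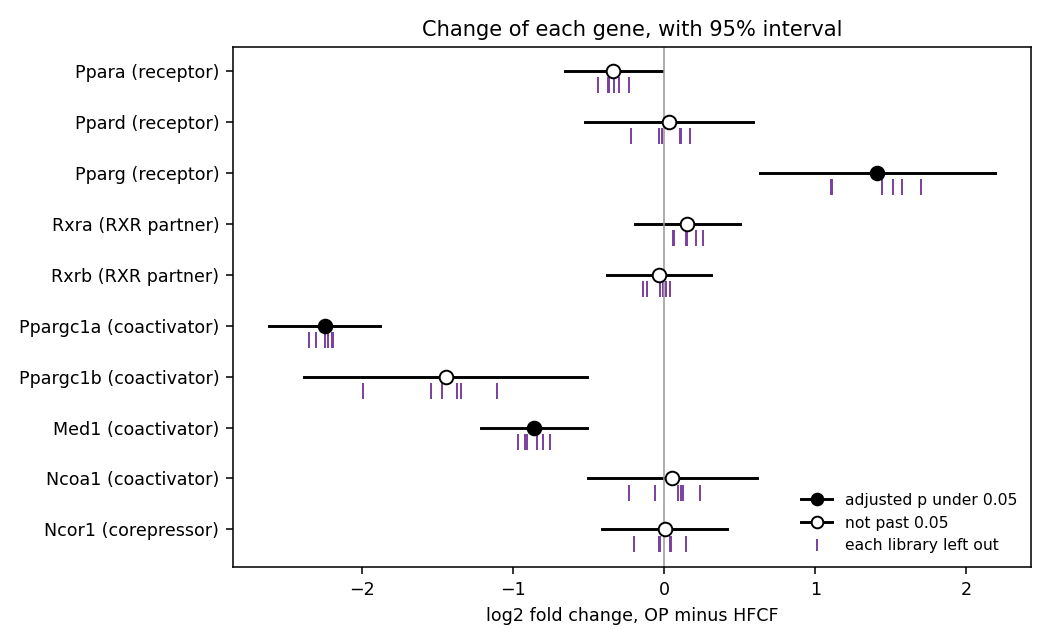
Log2 fold change of each gene, OP minus HFCF (horizontal axis), with its 95% interval; filled circles passed an adjusted p of 0.05, and the ticks under each line are the values with 1 library left out. Pparg at 1.41 is the only gene to the right of 0 whose interval leaves it out, and Ppargc1a at -2.25 lies farthest to the left.

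Levels of different genes were compared per kb of exon (CPM divided by the summed exon length of the gene in GENCODE M21). In OP the order was Rxra (49.6 CPM per kb), Rxrb (9.32), Ppara (8.19), Pparg (4.44), Ncor1 (4.14), Med1 (1.69), Ncoa1 (1.26), Ppargc1a (0.753), Ppard (0.732) and Ppargc1b (0.613). Among neighbours in this order, the libraries of Pparg and Ncor1, of Med1 and Ncoa1, and of the last 3 genes overlapped. In HFCF it was Rxra (44.7 CPM per kb), Ppara (10.4), Rxrb (9.56), Ncor1 (4.14), Ppargc1a (3.58), Med1 (3.08), Ppargc1b (1.67), Pparg (1.67), Ncoa1 (1.22) and Ppard (0.718). There the libraries of Ppara and Rxrb, of Ppargc1a and Med1, of Ppargc1b and Pparg, and of Pparg and Ncoa1 overlapped. Pparg stood at position 4 in OP and 8 in HFCF, and Ppargc1a at position 8 in OP and 5 in HFCF.

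Within the receptor family the sum of the 3 genes overlapped between the groups, at 13.4 ± 1.65 CPM per kb in OP and 12.7 ± 1.97 CPM per kb in HFCF (SD, n = 3), while the shares of Pparg and Ppara in it did not. Pparg made up 28.3, 28.7 and 41.1% of the sum in the OP libraries and 14.1, 8.93 and 15.3% in the HFCF libraries. Ppara made up 64.5, 66.3 and 54.6% in OP and 80.6, 84.6 and 79.4% in HFCF. Ppara was the larger part in each library. Ppard stayed between 4.32 and 7.22% in all 6 libraries. The summed RXR level was 4.47 ± 0.844 times the summed PPAR level in OP and 4.30 ± 0.466 times in HFCF.

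The 2 PGC-1 genes together came to 0.988, 1.24 and 1.86 CPM per kb in OP and 5.49, 5.53 and 4.73 CPM per kb in HFCF. Ppargc1a made up 70.8, 56.0 and 46.3% of this sum in OP and 65.5, 69.8 and 69.7% in HFCF, so its share overlapped between the groups.

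**Figure D3:**
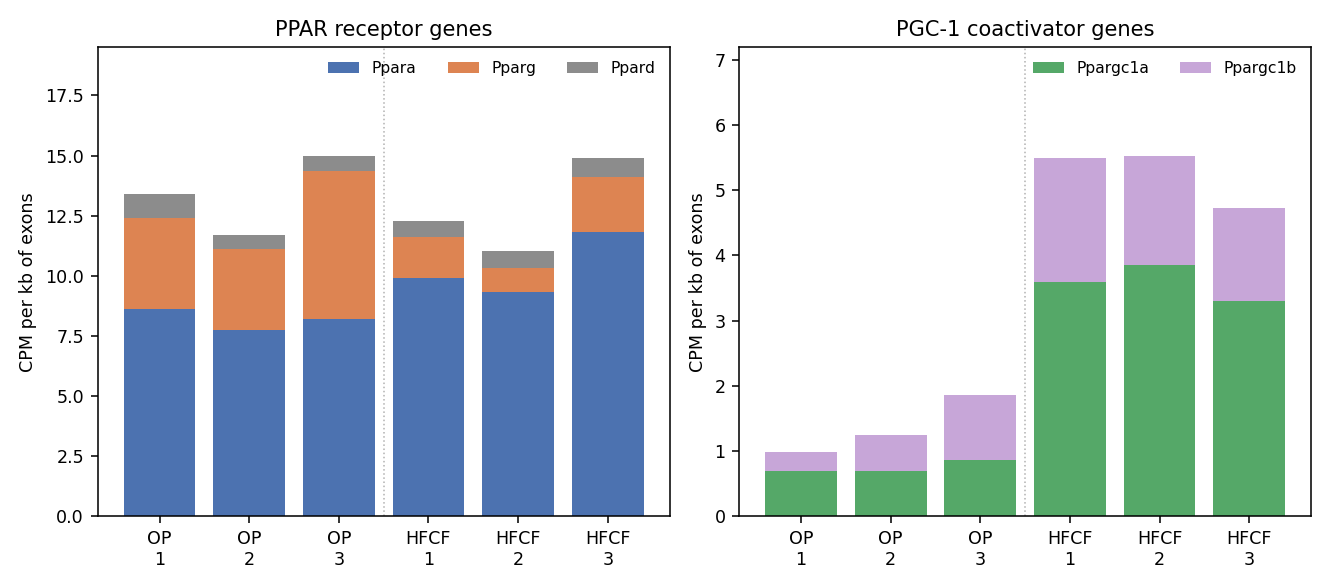
Level per kb of exon in each library, stacked for the 3 PPAR receptor genes (left) and the 2 PGC-1 genes (right), with OP libraries left of HFCF libraries. The PPAR columns are of similar height with a larger Pparg part in OP, and the PGC-1 columns reach at most 1.86 in OP and at least 4.73 in HFCF.

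A ratio of 2 genes within a library does not depend on how libraries are scaled, and 4 ratios were tested with a two-sided exact permutation test, which with 3 against 3 libraries cannot give a p under 0.10. Pparg had 0.333 to 0.579 counts per count of Ppara in OP and 0.0812 to 0.148 in HFCF. The log2 ratio of Pparg to Ppara was higher in OP by 1.78 and that of Pparg to Rxra by 1.3. Ppargc1a had 0.0848 to 0.109 counts per count of Ncor1 in OP and 0.427 to 0.483 in HFCF, and this log2 ratio fell by 2.23. For these 3 ratios the groups did not overlap, which gives exact p = 0.10, the smallest possible, and 0.133 adjusted over the 4 ratios. The log2 ratio of Ppargc1a to Ppargc1b was 1.19 ± 0.756 in OP and 1.83 ± 0.162 in HFCF (SD; exact permutation p = 0.40, adjusted 0.40), so a difference in change between the 2 PGC-1 genes was not shown. This difference of -0.64 depended on single libraries: it was -1.04 without OP replicate 1, where the groups did not overlap (exact permutation p = 0.10, the smallest possible), and -0.30 without OP replicate 3.

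Genes with the same functions were then described from lists of other coactivators, corepressors, RXR partners, PGC-1 partner factors and regulators of Ppargc1a. Among all 17394 tested genes edgeR's test called 3.26% higher and 3.47% lower, and 4385 had an unadjusted p under 0.05. A single call in a list of 12 to 15 genes is close to the 6.73% called in either direction. Such a count shows nothing particular to its list. The PGC-1 partner factors had 2 calls among 12 genes. Of 20 other coactivators 0 passed edgeR's test in either direction; 4 were lower and 0 higher at an unadjusted p under 0.05, and DESeq2 called 1 lower and limma-voom 0. The median log2 fold change was -0.12, and 16 of 20 lay below 0. Carm1, an arginine methyltransferase that acts with p160 coactivators, had 23.9, 16.9 and 9.43 CPM in OP and 37.8, 32.9 and 27.3 CPM in HFCF (adjusted p = 0.0928 in edgeR's quasi-likelihood test). Ncoa2, the p160 coactivator SRC-2, had 16.9, 17.7 and 23.8 CPM in OP and 24.9, 33.5 and 27.2 CPM in HFCF (adjusted p = 0.105 in the same test). For both genes the groups did not overlap, as for Ppargc1b and for 31.2% of all tested genes. Of the 20 other coactivators 4 had no overlap.

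Among 13 other corepressors 1 rose and 0 fell in edgeR's test (2 lower at an unadjusted p under 0.05). DESeq2 called 1 lower and limma-voom 0, and edgeR's test called 1 lower with upper quartile scaling, with the filter of 1 CPM and without OP replicate 3. Tle3, a Groucho-family corepressor, rose to 17.3, 17.3 and 17.6 CPM in OP, against 9.66, 10.3 and 7.51 CPM in HFCF (log2 fold change 0.92 ± 0.163, SE; adjusted p = 0.0178 in edgeR's quasi-likelihood test). The 3 OP libraries were nearly equal. The list had a median of 0.049, whose sign was not stable: it ran between -0.10 without OP replicate 3 and 0.16 without OP replicate 2. Of 12 other RXR partners tested, Thra, the thyroid hormone receptor alpha, fell to 14.1, 14.2 and 12.2 CPM in OP, against 25.8, 22.1 and 22.3 CPM in HFCF (-0.79 ± 0.143, SE; adjusted p = 0.0196 in edgeR's quasi-likelihood test), and the other 11 did not pass. The median of these partners was 0.28, and 0.15 without OP replicate 1. Tle3 and Thra lost their calls without OP replicate 1, HFCF replicate 1 or HFCF replicate 2 (adjusted p up to 0.0938 and 0.111 in edgeR's test).

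Of 12 genes listed as PGC-1 partner factors, 2 rose and 0 fell in edgeR's test (0 lower at an unadjusted p under 0.05, in DESeq2 or in limma-voom). Among all tested genes edgeR's test called 3.26% higher and 3.47% lower. The list pools nuclear transcription factors with mitochondrial factors such as Tfb2m and Tfam. The median of the 12 was 0.27, and 0.17 without OP replicate 1 or with the mitochondrial share in the model. Tfb2m, a mitochondrial transcription factor, rose to 23.4, 18.6 and 22.5 CPM in OP, against 12.5, 12.8 and 14.4 CPM in HFCF, and Foxo1, a forkhead factor of gluconeogenesis, rose by 0.83 (log2). The nuclear receptor Esrra had a log2 fold change of -0.11 and the mitochondrial factor Tfam of 0.19, neither past the threshold. Of 15 regulators of Ppargc1a 1 fell and 0 rose in edgeR's test (0 higher at an unadjusted p under 0.05, in DESeq2 or in limma-voom). Their median was -0.27, and -0.095 with the mitochondrial share in the model. The list pools genes that raise Ppargc1a with genes that restrain it, so this median has no direction for Ppargc1a. The gene that fell was Sik1, a kinase that is itself induced by cAMP and restrains CREB coactivators. It had 15.7, 15.9 and 11.5 CPM in OP and 39.2, 34.4 and 27.7 CPM in HFCF (-1.23 ± 0.190, SE, with adjusted p = 0.012 in edgeR's quasi-likelihood test). The groups were separate, with all OP libraries lower. Crtc2, a CREB coactivator that raises Ppargc1a in fasted liver, had 55.6, 37.9 and 51.8 CPM in OP and 78.2, 79.2 and 60.5 CPM in HFCF (adjusted p = 0.0954 in the same test). Foxo1 lost its call without any library but OP replicate 2 or 3, and Tfb2m without any but OP replicate 2 or HFCF replicate 3. Sik1 lost its call without OP replicate 1, HFCF replicate 1 or HFCF replicate 2.

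Target genes of PPAR-gamma and PPAR-alpha were set beside the receptors, with lists drawn up when results of these libraries were known. The lists do not show which receptor acted on a gene, and this was not tested. Of 24 tested PPAR-gamma targets 4 rose and 0 fell in edgeR's test (11 higher and 3 lower at an unadjusted p under 0.05). Of all 17394 tested genes 3.26% rose and 3.47% fell in this test, and 4385 had an unadjusted p under 0.05. The median log2 fold change of the list was 0.80, against 0.019 over all tested genes. DESeq2 called 7 higher and 3 lower, and 1252 higher and 1262 lower over all tested genes. With limma-voom 7 were higher and 0 lower, and 645 and 674 over all tested genes. The median of the list was 0.50 without OP replicate 2. Cfd, Adipoq, Plin1 and Fabp4 are in this list and among the adipocyte markers, so the target list is not independent of those markers. The log2 fold changes of these shared genes were 4.84, 3.37, 1.85 and 0.80, none past the threshold in edgeR's test. Mogat1, an acyltransferase of triglyceride synthesis, rose to 3.97, 6.31 and 10.3 CPM in OP, against 1.43, 1.18 and 1.49 CPM in HFCF. Plin4, a lipid droplet coat gene, rose to 122, 77.4 and 233 CPM in OP, against 19.6, 21.04 and 52.3 CPM in HFCF. Like Pparg, both were highest in OP replicate 3. Agpat2 and Acsl1 were the other 2 that rose. Acsl1 was also highest in OP replicate 3, with 1457, 1374 and 1555 CPM in OP and 784, 769 and 964 CPM in HFCF. Agpat2 went the other way within OP, with its lowest OP level in replicate 3. It had 223, 229 and 169 CPM in OP and 101, 92.2 and 109 CPM in HFCF. Pck1, a target in fat that in liver belongs to gluconeogenesis and responds to PGC-1alpha, had 2274, 1374 and 502 CPM in OP and 3876, 3679 and 4469 CPM in HFCF, without passing (log2 fold change -1.53, adjusted p = 0.0792 in edgeR's quasi-likelihood test). The number of higher calls ranged from 0 without HFCF replicate 1 or 2 to 10 without HFCF replicate 3, and it was 1 without OP replicate 1. With the mitochondrial share in the model it was also 1, and the median was 0.22.

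Of 38 PPAR-alpha targets 10 rose and 1 fell in edgeR's test (16 higher and 2 lower at an unadjusted p under 0.05). DESeq2 called 14 higher and 2 lower and limma-voom 11 higher and 1 lower. Among all 17394 tested genes 3.26% rose and 3.47% fell in edgeR's test, and 4385 had an unadjusted p under 0.05. DESeq2 called 1252 of them higher and 1262 lower, and limma-voom 645 and 674. The median of the list was 0.49 (0.29 without OP replicate 2). Pex11a, a peroxisome division gene, rose to 320, 301 and 276 CPM in OP, against 102, 107 and 118 CPM in HFCF (log2 fold change 1.46 ± 0.137, SE; adjusted p = 0.0029 in edgeR's quasi-likelihood test). Of the 21 genes called in these lists and the marker lists, Pex11a and Vnn1 (log2 fold change 1.56), a pantetheinase gene, were the 2 that passed in each of the 6 fits with a library left out. Fabp1, the liver fatty acid binding protein, rose by 1.25 (log2). With the mitochondrial share in the model 4 of the 21 kept their calls, namely Mogat1, Ehhadh, Vnn1 and Pex11a. Mgll, the monoacylglycerol lipase, rose to 323, 333 and 243 CPM in OP, against 119, 133 and 179 CPM in HFCF, and lost its call without OP replicate 1 or 2 or HFCF replicate 1 or 2. Cyp4a14, a fatty acid hydroxylase, had 2220, 2005 and 1066 CPM in OP and 2604, 2739 and 3448 CPM in HFCF, with a log2 fold change of -0.73 that did not pass (adjusted p = 0.148 in the same edgeR test). Ehhadh, a peroxisomal enzyme of fatty acid oxidation, fell to 359, 413 and 278 CPM in OP, against 834, 869 and 959 CPM in HFCF. The number of higher calls was 2 without OP replicate 1, HFCF replicate 1 or HFCF replicate 2, 3 without OP replicate 2, and 11 without OP replicate 3 or HFCF replicate 3. With the mitochondrial share in the model it was 2, and the median was 0.02.

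**Figure D4:**
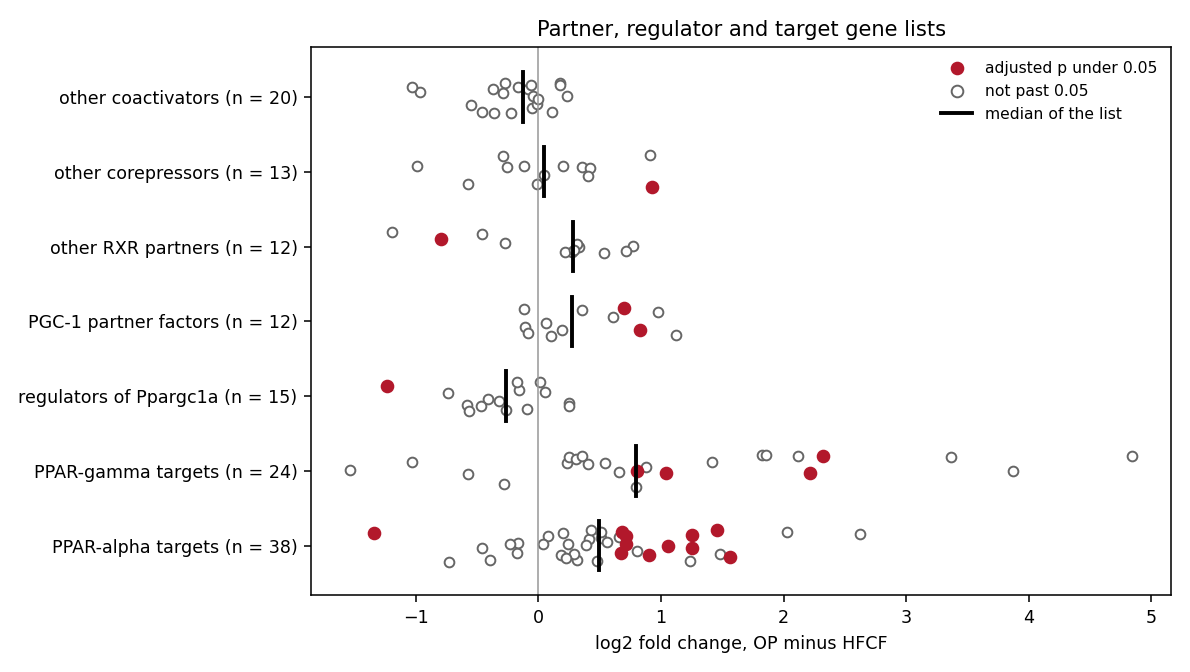
Log2 fold change, OP minus HFCF (horizontal axis), of each tested gene in 7 lists of partners, regulators and targets; red points passed an adjusted p of 0.05 and the black bar is the median of the list. The medians of the PPAR-gamma and PPAR-alpha targets lie at 0.80 and 0.49, those of the other lists between -0.27 and 0.28.

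For Pparg and Ppargc1a the genes with the most similar levels over the 6 libraries were found by Pearson's correlation of log2 CPM among 11880 named genes with a mean of at least 1 CPM. Most like Pparg were Pnldc1 (r = 0.997), Nfatc3 (0.993), Ltbp2 (0.993), Ndufa11 (0.992) and Tiprl (0.991), and 126 genes, 1.06% of the candidates, had r over 0.95. Most like Ppargc1a were Kif21a, Hnrnpll, Usp49, Lemd2 and Zup1, with r of 0.995 to 0.997, and 291 genes, 2.45%, had r over 0.95. Kif21a had 20.8 CPM in OP and 48.1 CPM in HFCF on average, and Usp49 had 5.59 CPM in OP and 13.0 CPM in HFCF. The 6 points of each correlation differ in group, depth and library composition, and such differences can move many genes together. These values are therefore a description without a test.

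**Figure D5:**
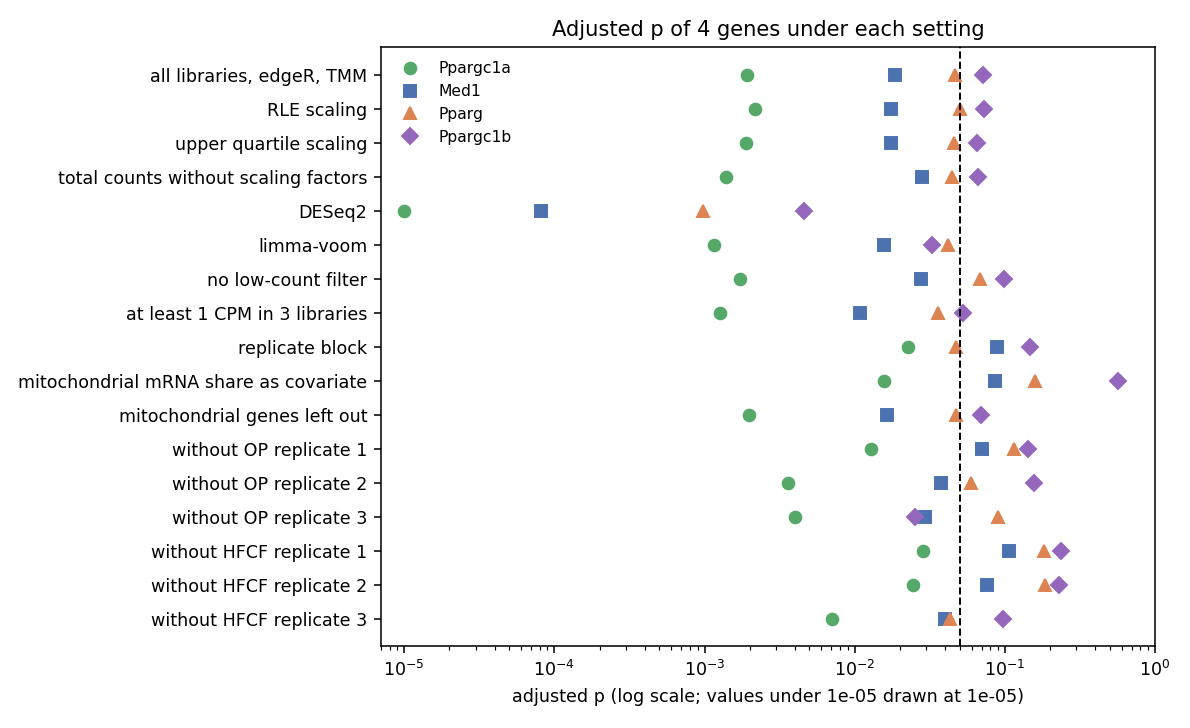
Adjusted p (horizontal log axis, dashed line at 0.05) of Ppargc1a, Med1, Pparg and Ppargc1b under each setting of the analysis (rows). Ppargc1a lies left of the line in each row, while Pparg lies right of it in 8 of them.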

How the data were processed

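Per the labels' protocols, polyadenylated RNA of fresh liver was reverse transcribed, the second strand was synthesised with dUTP, and read pairs were sequenced. The submitters' processing notes name cutadapt 1.9, FastQC and the build GRCm39; which aligner and counter were used, and whether counting was stranded, is not stated in those notes. The authors deposited whole-number counts per gene, 1 column per library. Counts of 4 were commoner among genes than counts of 3 or 5 in all 6 libraries (OP replicate 1 had 909, 482 and 257 such genes), so a single read pair may add more than 1 count, which would overstate the depth. In these libraries 3 counts, the level a count of 0 allows, come to 0.0472 to 0.0625 CPM, for counting error only. Replicates within a group differed by more than sampling noise (chi-square per degree of freedom 46.2 to 350).

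Symbols were matched on Ensembl identifiers (55141 of 55401). Genes passing filterByExpr were TMM-scaled and tested two-sided, OP minus HFCF, by the quasi-likelihood functions glmQLFit and glmQLFTest of edgeR 4.0.16 (R 4.3.3). Adjusted p is Benjamini-Hochberg's, taken across the 17394 genes, with 0.05 as threshold. Standard errors are the fold change over the root of F, and 95% intervals use the moderated degrees of freedom. The members and lists were chosen with earlier results of these data known, so members called are set beside the share of all genes called. Named genes are all 10 members, at most 4 called genes per list and direction with the smallest p (or the 2 smallest where none passed) and the 5 most correlated genes. Pck1, Cyp4a14, Esrra, Tfam, Crtc2, Alb, Serpina1c, Adipoq, Plin1, Lep, Retn, Fabp4 and Lipe were chosen after their values were seen. Of the stellate, endothelial and lymphocyte markers none is named. Gyk and Tf had no matching identifier. Exon lengths came from GENCODE M21 and promoter sequences from RefSeq (GRCm38.p6). Exons of Ncor1 overlap those of Pigl and Ttc19 on the opposite strand by 82 and 1 of 12811 bases. Alternatives were RLE, upper quartile or no scaling, DESeq2 1.42.0, limma-voom (limma 3.58.1), other filters, a replicate block, the mitochondrial share as a covariate, mitochondrial genes left out, each library left out and a threshold of 0.1. Applying them to the lists was decided after seeing the data. The tests were tried on simulated data. Figures were drawn with matplotlib 3.10.9.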

Additional observations from a re-analysis of the deposited data

How the results depend on the processing

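Of the 10 genes, Ppargc1a kept its direction and its call in all 17 alternatives, and Ppara its direction without a call in all 17. Pparg stayed above 0 in all 17 but lost its call in 8, namely with RLE scaling (adjusted p = 0.0506 in edgeR's quasi-likelihood test), no low-count filter (0.0689), the mitochondrial share as a covariate (0.16) and each library left out but HFCF replicate 3. Med1 stayed below 0 and lost its call in 5, among them that covariate (0.0862). Ppargc1b stayed below 0 and gained a call in 4, among them a threshold of 0.1. So 0 members were called higher with RLE scaling, no filter or the covariate, 1 lower with the covariate, and with a library left out 0 to 1 higher and 1 to 3 lower.

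The number of genes called, 567 higher and 603 lower, was 1252 and 1262 with DESeq2, 298 and 400 with no filter, 110 and 97 with the covariate, 1322 and 1230 at a threshold of 0.1, and 34 to 655 and 54 to 655 with a library left out. Same-numbered libraries did not deviate together (correlations of 0.023, -0.13 and -0.16), where differently numbered ones ran from -0.15 to 0.25. These values show no pairing by number, but with 3 libraries per group they cannot decide whether there was one. With the replicate number as a block 87 genes were higher and 93 lower, Pparg and Ppargc1a kept their calls, and 1 member was lower, since Med1 missed the threshold (adjusted p = 0.0884 in edgeR's test).

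Signs turned for uncalled genes close to 0. Ncor1 was at -0.0078 with RLE, -0.041 with upper quartile scaling, -0.0066 with no scaling, -0.00796 with DESeq2, -0.025 with limma-voom, -0.0102 with no filter, -0.023 at 1 CPM in 3 libraries, -0.024 with the block and -0.00897 without mitochondrial genes. Ppard was at -0.0103 with upper quartile scaling, -0.0075 with limma-voom, -0.0032 with the block and -0.21 with the covariate, which also put Rxra at -0.12 and Rxrb at 0.31. With a library left out Ncor1 ran from -0.20 to 0.14, Ncoa1 from -0.23 to 0.24, Ppard from -0.22 to 0.17 and Rxrb from -0.14 to 0.037. The causes were not tested. The 4 ratios kept their sign with 5 counts added or a library left out, and moved by less than the larger of the 2 groups' SDs. The ratio of Ppargc1a to Ppargc1b moved by more than its HFCF SD of 0.162. The difference in the log2 ratio of Pparg to Rxra was 0.93 without OP replicate 3 (exact permutation p = 0.20), against 1.3 with all libraries. Ppargc1b had the fewest counts of the 10 genes in OP, 69 to 192.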
